A study of Mus musculus with 2 samples.

Results

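The genes followed here across immune cells of a mouse glioma form 2 sets: 18 for glucose uptake and glycolysis and 16 induced by low oxygen. The 34 genes were taken as named symbols and matched 35 of the 31253 gene rows, because Aldoa has a second identifier with 0 and 3 UMIs (unique molecular identifiers, each counting 1 captured transcript) in the PBS and ibudilast libraries. The symbols were chosen by name, with earlier results of these data known. GL261 is a mouse glioma line. It was grown in the brains of C57BL/6 mice, and CD45+ cells were profiled by droplet-based 3' single-cell RNA sequencing. The PBS library came from mice given PBS and the ibudilast library from mice given ibudilast, a phosphodiesterase inhibitor, at 20 mg/kg. Both were given into the stomach 5 times per week for 2 weeks. The control label reads untreated where the protocol names PBS, and neither the number nor the age of the mice is given in the sources used here. There is 1 library per group and there are no replicates, so no difference below has a replicate check or a p-value, and ratios compare these libraries, not the treatments.

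Glycolysis turns glucose into pyruvate in a chain of enzymes, and the last step makes lactate where oxygen is short or where cells grow fast. Low oxygen stabilises the transcription factor HIF-1, which binds the short sequences ACGTG and GCGTG and raises the genes of glucose transporters, most glycolytic enzymes, angiogenic factors such as Vegfa, mitophagy receptors such as Bnip3 and the prolyl hydroxylases that limit HIF itself. Macrophages, T cells and dendritic cells also raise glycolysis on activation, so glycolytic enzymes alone do not mark low oxygen. The hypoxia members here are mostly genes outside the glycolytic chain.

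Because HIF-1 acts through promoter sequence, the 250 bases before annotated transcription starts were searched for ACGTG and GCGTG on both strands, with CACGTG, the E-box bound by MYC and USF proteins, counted separately as an overlapping motif. RefSeq windows on GRCm38.p6 were found for 31 of the 34 symbols, in 47 windows, with Ero1l entered there as Ero1a. Slc2a3, Bnip3l and Ndrg1 had none. At least 1 match lay in 21 of 26 glycolysis windows (80.8%) and in 15 of 21 hypoxia windows (71.4%), against 38.6% of all 32851 windows of that length. The members' windows also held more CG dinucleotides, with medians of 15 and 19 against 6 over all windows, and both motifs contain CG. CACGTG was in 7.69% and 4.76% of the members' windows and in 6.02% of all.

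The windows below are shown for 2 hypoxia members with large differences between macrophage states (Adm, P4ha2) and 2 abundant glycolytic enzymes with smaller ones (Ldha, Pgk1). Capitals mark the matches, and a match on the reverse strand reads CACGT or CACGC.
Adm, chr7:110627407-110627656, plus strand: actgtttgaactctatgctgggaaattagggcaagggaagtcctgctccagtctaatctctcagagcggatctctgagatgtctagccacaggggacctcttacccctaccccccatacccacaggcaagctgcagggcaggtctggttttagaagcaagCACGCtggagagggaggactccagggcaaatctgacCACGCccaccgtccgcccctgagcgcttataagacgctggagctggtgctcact
P4ha2, chr11:54100674-54100923, plus strand: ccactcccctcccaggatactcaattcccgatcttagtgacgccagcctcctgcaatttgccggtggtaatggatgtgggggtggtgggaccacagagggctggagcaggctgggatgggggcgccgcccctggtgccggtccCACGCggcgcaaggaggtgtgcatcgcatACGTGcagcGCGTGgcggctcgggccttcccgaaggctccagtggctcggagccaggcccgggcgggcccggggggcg
Ldha, chr7:46845554-46845803, plus strand: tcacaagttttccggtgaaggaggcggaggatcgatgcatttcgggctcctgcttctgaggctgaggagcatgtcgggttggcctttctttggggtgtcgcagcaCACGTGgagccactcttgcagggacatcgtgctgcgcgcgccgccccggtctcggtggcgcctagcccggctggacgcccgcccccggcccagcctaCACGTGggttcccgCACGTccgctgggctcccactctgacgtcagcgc
Pgk1, chrX:106186850-106187099, plus strand: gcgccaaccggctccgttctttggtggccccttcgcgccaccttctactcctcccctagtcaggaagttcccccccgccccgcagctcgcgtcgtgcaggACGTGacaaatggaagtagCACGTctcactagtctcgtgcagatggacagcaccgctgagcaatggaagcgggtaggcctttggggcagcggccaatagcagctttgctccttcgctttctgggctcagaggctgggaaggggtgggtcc
The Adm window holds 2 matches, the P4ha2 window 3, the Ldha window 5 and the Pgk1 window 2. The 5 in Ldha include 2 CACGTG sequences, each read once on either strand. No annotated exon falls inside these 4 windows. The Adm and Pgk1 windows lie before their genes in GENCODE M21 (Adm from 110627661 to 110629820 and Pgk1 from 106187100 to 106203699), and the P4ha2 and Ldha windows lie inside the annotated gene span, before a later start. A match is a description of sequence and does not show binding.

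The PBS library held 8968 barcodes and 119113794 UMIs, and the ibudilast library 8483 barcodes and 82196922 UMIs. After filtering, 7666 and 6654 cells were kept, with median depths of 11659.5 and 7857 UMIs, and 19 barcodes were found in both libraries. Cells were placed in gates by thresholds on marker genes, and levels are CPM, a gene's UMIs summed over a gate and scaled to a common total. A gene is called higher where its ratio lay above the inverse of 0.8-fold and lower where it lay under 0.8-fold, if it had at least 20 UMIs over both sums. Although the labels name lymphocytes, the macrophage gate (C1qa, Apoe, Ms4a7 and others) was the most numerous of the 5 main gates, with 3743 and 1894 cells. There were 514 and 693 monocytes, 429 and 570 T cells, 138 and 287 NK cells and 353 and 446 dendritic cells in the PBS and ibudilast libraries. Cells within 25% of the threshold numbered 81 and 77 for macrophages, 40 and 77 for monocytes and 2 and 2 for T cells. Macrophage markers were also counted outside macrophages. Their sums were at 1972 and 1647 CPM in T cells, 1658 and 1499 CPM in NK cells and 1534 and 1240 CPM in dendritic cells. In macrophages they were at 39951 and 39551 CPM. The part of free RNA in droplets in these and other low levels outside macrophages was not tested. Intervals of levels, ratios and shares are 95% and cover counting error only. The range beside a list median gives the medians of its genes' bounds and leaves out the spread between genes.

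Among macrophages, cells carrying Arg1 and Mmp12 stood apart in nearly every member. Arg1 encodes an arginine-degrading enzyme of tumour macrophages and Mmp12 a matrix protease. The Arg1 Mmp12 gate held 163 PBS and 42 ibudilast cells, 4.36% and 2.22% of macrophages, and it was set against the 1776 and 735 macrophages gated on MHC class II genes. In the PBS library, 17 of 18 glycolysis members and 16 of 16 hypoxia members were higher in the Arg1 Mmp12 gate, as were 18.3% of all 11438 genes measured. In the ibudilast library these counts were 16 of 18 and 15 of 15, against 26.3% of all genes. The same 16 glycolysis and 15 hypoxia members were higher in both libraries.

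In the PBS library the hypoxia targets had a median log2 ratio of 2.19 (range 1.98 to 2.40). The glycolysis median was 1.17 (1.04 to 1.24), against -0.02 over all genes. In the ibudilast library the glycolysis median was 0.998 (0.79 to 1.26), against 0.07 over all genes. Whether the lists differ was not tested in either library. The ibudilast hypoxia median was 1.2 (0.64 to 1.78), a range that overlapped that of glycolysis. That hypoxia median was 1.96 with cells over the threshold of another macrophage state kept and 2.87 with clusters from the Leiden method, which groups cells over all variable genes, in place of gates. Adm, which encodes the vasodilator peptide adrenomedullin, had 16.1 CPM in the PBS Arg1 Mmp12 gate and 0.521 CPM in the MHC class II gate (44 and 15 UMIs), a ratio of 31.0 (interval 16.9 to 59.97). Those 44 UMIs came from 17 of 163 cells, and 84.1% of them from 10 cells. Adm had 1 and 5 UMIs in ibudilast cells and was not compared.

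P4ha2, a collagen prolyl hydroxylase subunit, was at 29.4 against 1.84 CPM among PBS cells (15.95-fold) and 19.0 against 1.18 CPM among ibudilast cells (16.1-fold). Vegfa, the angiogenic growth factor, was at 150 against 19.5 CPM (7.66-fold, interval 6.73 to 8.72) and at 158 against 17.4 CPM (9.08-fold, interval 6.91 to 11.9). For both genes the 2 libraries gave overlapping intervals. Hilpda, which blocks lipid breakdown in lipid droplets, was at 156 against 18.9 CPM and at 49.5 against 16.2 CPM, with ratios of 8.29 and 3.05. Ndrg1, a stress-response gene, had ratios of 11.2 and 4.18. Bnip3, a mitophagy receptor, had ratios of 5.60 and 3.48, and Ero1l, an oxidase of protein folding in the endoplasmic reticulum, had ratios of 5.21 and 3.09. Egln3, an oxygen-sensing prolyl hydroxylase that limits HIF, had ratios of 8.51 and 5.38. The ibudilast ratios of P4ha2 and Egln3 rested on low counts, at 19.0 and 9.51 CPM in 42 cells with 525651 UMIs in all. The ibudilast values of several of these genes rested on which cells were counted. With cells over another state's threshold kept, 264 and 89 in all, the ratios were 7.76 and 9.97 for Hilpda, 10.6 and 9.42 for Ndrg1, 8.45 and 13.3 for Egln3, 12.8 and 26.0 for P4ha2 and 5.21 and 5.57 for Bnip3, so the ibudilast ratios of Hilpda, Egln3 and Bnip3 were then no longer the lower ones and the gap for Ndrg1 nearly closed. No PBS ratio of a member moved by over 1.5 times.

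Other hypoxia members stood nearer to the enzymes. Egln1, the main HIF prolyl hydroxylase, had ratios of 2.45 and 2.28, and Pdk1, the kinase that holds pyruvate out of mitochondria, had ratios of 2.03 and 1.98. Bnip3l was at 1.99 and 1.48, P4ha1 at 1.81 and 1.48 and Higd1a, a mitochondrial protein, at 1.78 and 1.29. For Mxi1, a MYC antagonist, Kdm3a, a histone demethylase, and Ankrd37 the PBS ratios were 3.99, 2.45 and 3.13. In the ibudilast library these 3 had intervals that reached below 1, and with cells over another state's threshold kept their ratios were 2.73, 2.29 and 4.07.

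Along the glycolytic chain the ratios were even. Aldolase (Aldoa) was at 1481 against 612 CPM and 1288 against 549 CPM in the PBS and ibudilast libraries (2.42-fold and 2.35-fold). Triose phosphate isomerase (Tpi1) had ratios of 2.85 and 2.10, phosphoglycerate kinase (Pgk1) of 2.78 and 2.44, phosphoglycerate mutase (Pgam1) of 2.26 and 2.12, pyruvate kinase (Pkm) of 2.27 and 2.05, and lactate dehydrogenase (Ldha) of 2.10 and 1.95. The ends of the pathway, transport in and out of the cell, lay higher in the PBS library. There the glucose transporter Slc2a1 was at 182 against 43.0 CPM (4.24-fold) and the lactate exporter Slc16a3 at 3.16-fold. In the ibudilast library Slc16a3 was at 3.42-fold, while Slc2a1, at 97.0 against 38.3 CPM (2.53-fold), lay near Pgk1. Slc2a3, the other glucose transporter, was the exception in the PBS library, at 2.57 against 2.88 CPM, and in the ibudilast library neither it (ratio 1.14) nor Hk1 (1.19) was higher. Eno1 shares sequence with Eno1b, which had 3018 and 2143 UMIs in the libraries, so its level (ratios 2.01 and 2.06) is uncertain.

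**Figure D1:**
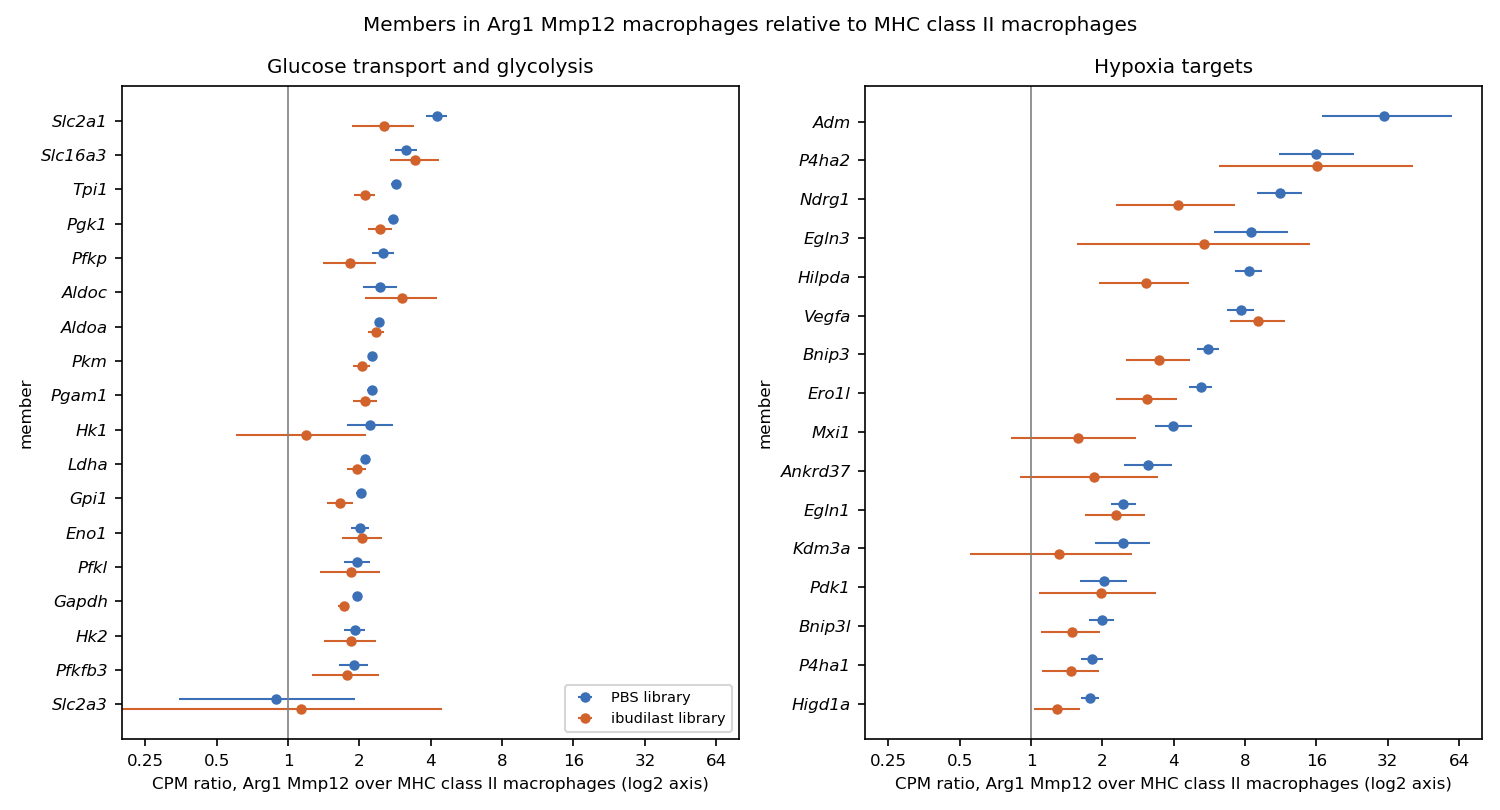
Each point is the ratio of CPM in Arg1 Mmp12 macrophages to CPM in MHC class II macrophages (log2 axis) for 1 member, blue for the PBS library and orange for the ibudilast library, with 95% intervals for counting error; members with under 20 UMIs over both gates are left out of that library. Most glycolysis members sit near 2-fold. Adm (31.0 in the PBS library) and P4ha2 (15.95 and 16.1, the latter on low counts) lie farthest right among the hypoxia targets.

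Other hypoxia targets, outside the members, were also at higher levels in the Arg1 Mmp12 gate, and other glycolysis genes on the whole were not. Of a list of 16 other measured hypoxia targets, 13 were higher in the PBS Arg1 Mmp12 gate, with a median log2 ratio of 1.07, and 11 of 13 were in the ibudilast library, with a median of 0.97. Other glycolysis genes had medians of -0.18 (0 of 10 higher, 4 lower) and -0.12 (3 of 9 higher, 4 lower), where 22.5% and 27.2% of all genes were lower. Genes of the HIF system itself (such as Hif1a, Vhl and Egln2) had medians of 0.22 and 0.24. Among PBS cells 3 of 8 were higher (18.3% of all genes), and among ibudilast cells 2 of 8 (26.3%). Summed dissociation-stress genes were at 12841 and 12731 CPM in the Arg1 Mmp12 gate and 13876 and 13698 CPM in the MHC class II gate. Summed non-immune markers were at 59.1 and 103 CPM against 49.2 and 94.4 CPM. Median depths were 16460 and 10869.5 UMIs against 15064.5 and 12181 UMIs.

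When all macrophages were grouped by their UMIs of Arg1 and Mmp12 per 10000 UMIs, 33 of 34 members in each library were at higher levels in the highest group than in cells with none. The level was higher at each of the 4 steps for 27 members among PBS and 20 among ibudilast cells. The other 7 and 14 had at least 1 downward step, beyond the intervals only for Pfkp in ibudilast cells (93.1 then 58.8 CPM). None of these counts was computed over all genes. The groups at 5 and above hold the cells over the Arg1 Mmp12 threshold, so they repeat in part the comparison of gates above. In the PBS library Vegfa was at 16.9 CPM in the 2811 macrophages with none, 27.1 CPM up to 2.5, 56.4 CPM from 2.5 to 5, 101 CPM from 5 to 10 and 161 CPM in the 159 cells at 10 and above. The ibudilast library gave 21.7, 29.3, 58.8, 123 and 238 CPM over 1611, 145, 49, 33 and 56 cells. The order of the 5 groups was the same in both libraries. Bnip3 ran from 30.3 to 229 CPM and from 25.2 to 229 CPM, with 1 step out of order in the ibudilast library (68.4 CPM and then 55.6 CPM, overlapping intervals). Over all measured hypoxia members the median log2 ratio to macrophages with none was 0.46, 1.11, 1.86 and 2.52 in the PBS library and 0.44, 0.66, 1.50 and 2.33 in the ibudilast library. The glycolysis medians were 0.30, 0.82, 0.95 and 1.251, and 0.38, 0.59, 0.99 and 1.57. Median depth over these groups was 13544 to 18540 UMIs in PBS and 7285 to 15607 UMIs in ibudilast macrophages.

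**Figure D2:**
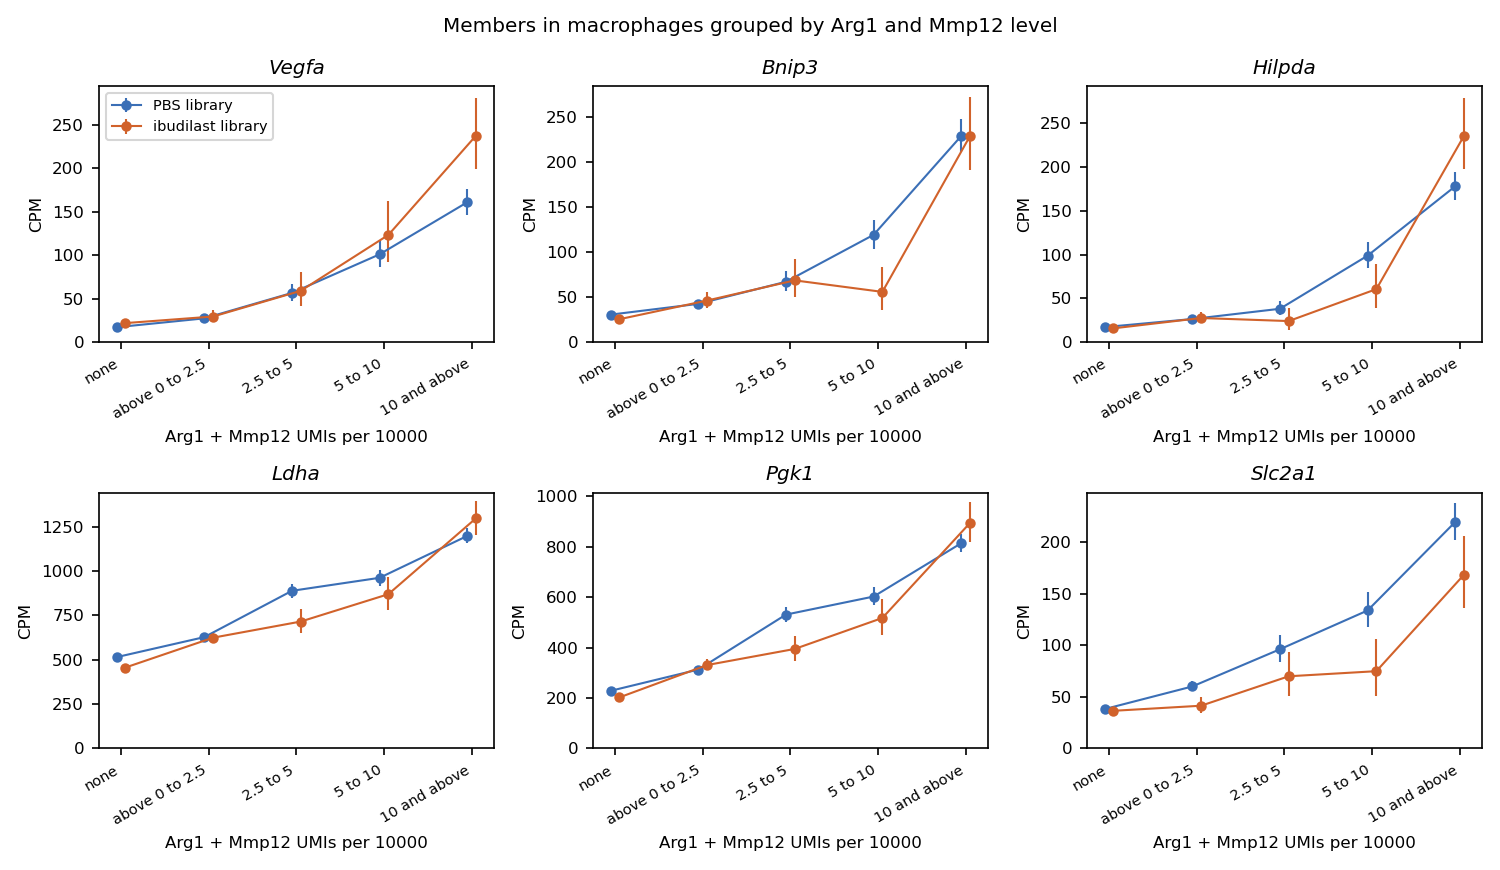
CPM of 6 members in macrophages grouped by Arg1 and Mmp12 UMIs per 10000 UMIs of the cell, from none to 10 and above, for the PBS (blue) and ibudilast (orange) libraries, with 95% intervals for counting error. Vegfa goes at each step upward from 16.9 to 161 CPM and from 21.7 to 238 CPM, a wider span than that of Ldha in the lower row, from 515 to 1199 CPM and from 456 to 1298 CPM.

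A small share of macrophages therefore held a large share of some transcripts. All cells over the Arg1 Mmp12 threshold, also those over the threshold of another state, were 264 PBS and 89 ibudilast cells, 7.05% and 4.70% of macrophages. These cells held 7.81% and 4.39% of all macrophage UMIs. They carried 64.9% and 57.7% of all macrophage Adm UMIs, 47.6% and 43.5% of P4ha2, 46.8% and 30.2% of Ndrg1, 38.7% and 30.1% of Hilpda, 36.1% and 26.8% of Vegfa and 31.4% and 19.7% of Bnip3. The median was 26.6% and 15.6% over the hypoxia members and 14.6% and 9.90% over the glycolysis members.

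The other macrophage states were less distinct. In cells gated on Gpnmb and Fabp5, lipid-handling genes, 7 of 18 glycolysis members and 11 of 15 hypoxia members were higher than in the MHC class II gate of the PBS library (19.8% of all genes), and 3 of 18 and 8 of 14 in the ibudilast library (20.7%). In both libraries 3 of 18 glycolysis and 7 of 14 hypoxia members were higher. Vegfa there was at 33.7 and 50.9 CPM. In macrophages gated on the interferon-induced chemokines Cxcl9 and Cxcl10, the hypoxia medians were -0.32 and -0.17, while the glycolysis medians were 0.00 and -0.05.

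Across 15 gates, the Arg1 Mmp12 gate had the highest level of 13 of 18 glycolysis members in each library, 12 of them in both, and of 11 and 5 of 16 hypoxia members. Of all genes, 3.60% were highest in this gate among PBS cells and 7.83% among ibudilast cells. The interval overlapped that of the second gate for 1 of the 13 glycolysis members in PBS cells and for 6 of the 13 in ibudilast cells, where Ldha was at 978 CPM beside 967 CPM in CD4 T cells, and for 5 of the 11 and 2 of the 5 hypoxia members. The ibudilast counts rest on the 42 cells over no other state's threshold. In all 89 cells over the Arg1 Mmp12 threshold, Hilpda was at 162 CPM, beside 101 CPM in Treg, its highest gate here. Pdk1, Bnip3l, P4ha2, Ankrd37 and Kdm3a were likewise above their highest gates, and Adm, Ndrg1, P4ha1, Higd1a and Mxi1 below. The ranking was not recomputed with these cells. In the ranking as made, the gate with the highest level was the same in both libraries for 24 of the 34 members. The members that peaked elsewhere split by lineage.

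Slc2a3, a high-affinity glucose transporter, was at 66.0 and 50.9 CPM in CD8 T cells in the PBS and ibudilast libraries and at 3.08 and 3.41 CPM in macrophages. Hk1, the constitutive hexokinase, was at 55.4 and 47.1 CPM in T cells and 18.2 and 20.5 CPM in macrophages, while the inducible Hk2 was at 20.4 and 21.9 CPM in T cells and 94.6 and 80.4 CPM in macrophages. Hk1 thus made up 73.1% and 68.3% of the UMIs of the pair in T cells, 71.7% and 71.2% in NK cells, 16.2% and 20.3% in macrophages, 24.7% and 25.6% in monocytes and 26.5% and 30.9% in dendritic cells. In both libraries the intervals of the T and NK cell gates did not overlap those of these 3 myeloid gates. Among smaller gates, migratory dendritic cells were an exception at 50.8% and 51.9%, with intervals that overlapped those of NK cells. Slc2a1 made up 46.7% and 38.2% of the UMIs of the Slc2a1 and Slc2a3 pair in T cells and 94.8% and 92.5% in macrophages. The phosphofructokinase share of Pfkl over Pfkl and Pfkp was 43.0% and 44.3% in macrophages and 12.99% and 13.9% in dendritic cells.

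Dendritic cell subsets were unlike one another. Migratory dendritic cells (Ccr7, Fscn1) had the highest level of Pfkfb3, which makes the activator of phosphofructokinase, at 244 and 248 CPM against 28.2 and 38.7 CPM in conventional type 2 dendritic cells (cDC2; Cd209a, Clec10a). They were also highest for Ndrg1, at 136 and 124 CPM, and Mxi1, at 63.5 and 76.3 CPM, the latter beside the PBS Arg1 Mmp12 gate at 62.4 CPM. Their glycolytic enzymes went both ways relative to cDC2: of 17 members 6 and 5 were higher (32.9% and 34.5% of all genes) and 9 and 10 lower (39.6% and 38.7%), shares not far from those of all genes. Some enzymes were higher, such as Aldoa at 509 and 386 CPM against 257 and 282 CPM. Gpi1, Pgam1, Eno1, Pkm and Ldha were in migratory cells at their lowest of the 15 gates in both libraries. Ldha was at 194 and 173 CPM against 414 and 442 CPM in cDC2. Of the hypoxia members 2 of 9 and 4 of 10 were lower. Slc2a1 was at 9.36 and 6.01 CPM in migratory cells, the lowest of the 15 gates in both libraries. Pfkp was highest in cDC2, at 271 and 298 CPM, beside 261 and 255 CPM in cDC1 (Xcr1, Clec9a).

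NK cells had low levels of most glycolysis members. Relative to macrophages, 13 of 18 glycolysis and 8 of 16 hypoxia members were lower among PBS cells, as were 36.9% of all genes, and 14 of 18 and 10 of 16 among ibudilast cells, as were 36.4% of all genes. Pkm was at 397 and 287 CPM in NK cells and 763 and 689 CPM in macrophages. Vegfa was an exception, at 38.6 and 23.8 CPM in NK cells, near the macrophage level of 29.7 and 31.0 CPM and above the 5.35 and 5.30 CPM of T cells. P4ha1 was highest in microglia, at 174 and 134 CPM.

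Among T cells, CD8 T cells had lower hypoxia members than regulatory T cells (Treg; Foxp3, Ikzf2). Of 13 measured hypoxia members 10 and 9 were lower than in Treg, 8 of them in both libraries. Over all genes 35.8% and 37.0% were lower. Of 18 glycolysis members 10 and 7 were lower, 4 in both. Bnip3 was at 19.9 and 12.4 CPM in CD8 T cells and 59.1 and 42.7 CPM in Treg, and Hilpda at 46.1 and 39.4 CPM against 75.0 and 101 CPM. Slc16a3 was at 21.4 and 20.0 CPM against 73.9 and 78.8 CPM.

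**Figure D3:**
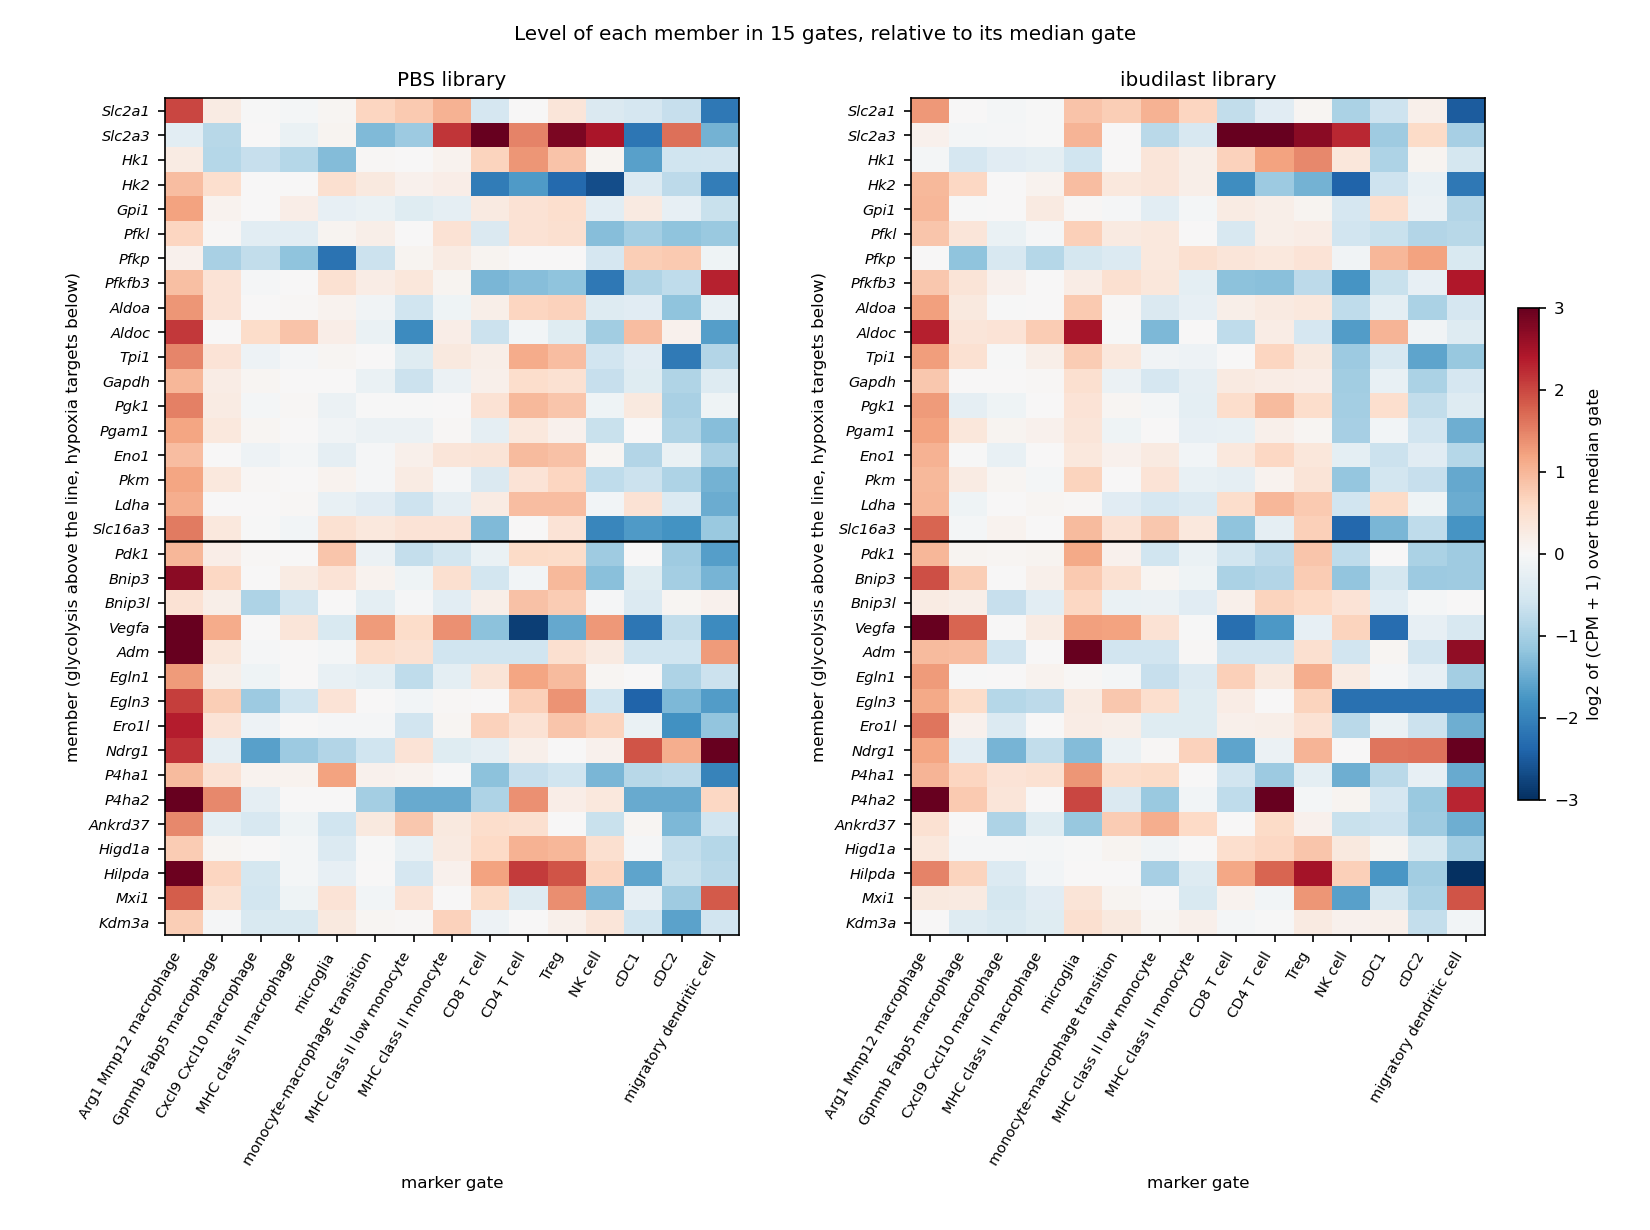
Heat map of the 34 members (rows, glycolysis above the line and hypoxia targets below) in 15 gates (columns) of the PBS library (left) and the ibudilast library (right); colour is log2 of CPM + 1 relative to the member's median gate, red above and blue below, limited at 3. The Arg1 Mmp12 column is red for most members in both libraries, and the Slc2a3, Hk2 and Pfkfb3 lines show lymphocytes and migratory dendritic cells apart from the macrophage gates.

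Glycolysis and hypoxia members varied together also among cells outside the Arg1 Mmp12 state. Cells were thinned to 2000 UMIs each and grouped by how many UMIs they had over the 16 hypoxia members. In MHC class II macrophages of the PBS library, the mean of the 18 glycolysis members was 9.07 UMIs per 2000 in the 788 cells with no hypoxia UMI, 10.3 with 1, 13.3 with 2 and 20.9 in the 163 cells with 3 or more. In the ibudilast library it was 8.23, 9.11, 11.6 and 20.9 UMIs in 344, 223, 112 and 53 cells. The step from 2 to 3 or more was the widest in both libraries. That last group is open-ended, with means of 4.25 and 3.77 hypoxia UMIs, so its step spans more hypoxia UMIs than the others. Arg1 and Mmp12 together averaged 0.0444 and 0.0407 UMIs per 2000 with no hypoxia UMI and 0.0859 and 0.0943 with 3 or more. The median depth before thinning was 14703 and 11790 UMIs with none and 14412 and 14004 UMIs with 3 or more. The part of either was not tested.

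By gene, 17 of 17 measured glycolysis members were higher in PBS cells with 3 or more than in those with 0 (21.4% of all genes were) and 15 of 15 in ibudilast cells (25.8%), with median log2 ratios of 1.22 and 1.51. Tpi1 had ratios of 4.15 (interval 3.56 to 4.82) and 4.04 (3.11 to 5.23), Slc16a3 of 5.64 and 5.52 and Slc2a1 of 5.26 and 3.61. Pgk1 was at 3.01 and 3.402, Ldha at 2.32 and 1.98, Gapdh at 1.93 and 2.26 and Gpi1, which isomerises glucose 6-phosphate, at 1.97 and 1.74. As between the macrophage states, both transporters of glucose and lactate were among those with the highest ratios.

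The same held in other gates with smaller ratios. In monocytes, 14 of 15 measured glycolysis members were higher in the PBS library (24.0% of all genes) and 14 of 16 in ibudilast cells (24.9%). In T cells 11 of 12 (26.3%) and 13 of 13 (28.5%) were, and in dendritic cells 9 of 11 (29.9%) and 7 of 11 (30.5%). T cells went from 8.96 to 17.97 and from 8.46 to 15 glycolysis UMIs per 2000, and dendritic cells from 6.58 to 12.1 and from 6.79 to 9.26. Dendritic cells with 3 or more hypoxia UMIs numbered 28 and 31, and 6 of 11 glycolysis members were higher in both libraries. In CD8 T cells alone, 9 of 10 (27.0%) and 9 of 11 (25.4%) were higher. Their PBS means were 9.25, 9.25, 9.30 and 16 UMIs with 0, 1, 2 and 3 or more hypoxia UMIs. The ibudilast means were 8.55, 10.4, 10.98 and 12.7 UMIs. CD8 T cells with 3 or more numbered 20 and 27. The part of subset make-up in the T cell and dendritic cell gates was not tested.

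**Figure D4:**
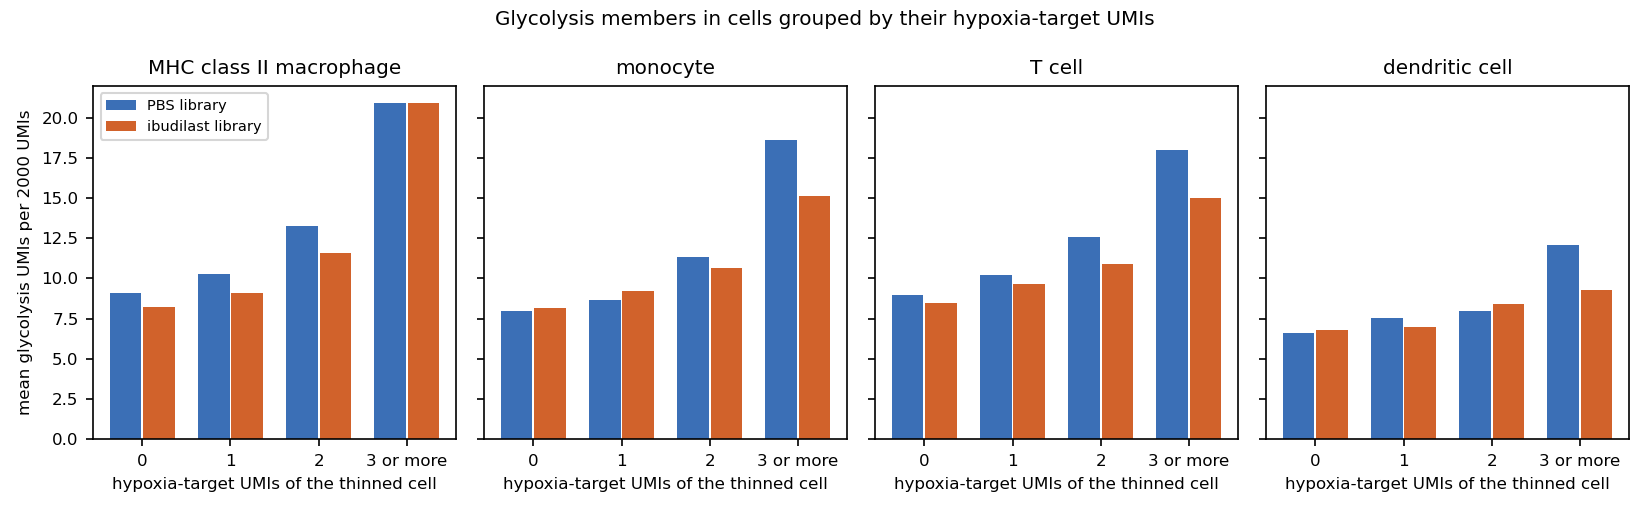
Mean UMIs over the 18 glycolysis members per 2000 UMIs (vertical axis) in cells thinned to that depth and grouped by their UMIs over the 16 hypoxia members (horizontal axis), for 4 gates, blue for the PBS library and orange for the ibudilast library; the bars have no error since cells are not replicates. In MHC class II macrophages the bars go from 9.07 to 20.9 and from 8.23 to 20.9, and in dendritic cells from 6.58 to 12.1 and from 6.79 to 9.26.

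Dividing T cells had higher levels of many glycolysis members. Of all T cells, 96 PBS and 115 ibudilast cells passed a threshold on cycling genes such as Mki67 and Top2a. Of 18 glycolysis members 10 were higher in them than in the other T cells of the PBS library (27.1% of all genes) and 9 in ibudilast cells (26.2%), and of 14 hypoxia members 2 and 5 were. The medians were 0.37 and 0.28 for glycolysis and -0.17 and 0.17 for hypoxia members, and the difference between the lists was not tested. Tpi1 was at 678 against 418 CPM and 540 against 255 CPM, and Ldha at 991 against 688 CPM and 981 against 597 CPM. Hilpda was at 54.9 against 66.3 CPM and 47.5 against 54.3 CPM.

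In macrophages, 396 and 200 cycling cells had lower hypoxia members: 11 of 16 were lower in each library, where 18.3% and 20.4% of all genes were, and 6 and 7 of 18 glycolysis members. The hypoxia medians were -0.60 and -0.71 and the glycolysis medians -0.19 and -0.13. Vegfa was at 13.5 against 32.5 CPM and 7.35 against 35.0 CPM, and Bnip3 at 31.0 against 48.6 CPM and 21.4 against 36.9 CPM. Among glycolysis members Aldoa was at 531 against 713 CPM and 483 against 624 CPM and Hk2 at 70.5 against 98.8 CPM and 62.7 against 83.5 CPM, while Gapdh was at 2327 against 2221 CPM and 2166 against 1934 CPM.

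Between the libraries, most members lay within 0.8-fold and its inverse in the main cell types other than NK cells. Under 20 UMIs, and so not compared, were Adm in monocytes, T cells, NK cells and dendritic cells, Egln3 in NK and dendritic cells, P4ha2 in monocytes and NK cells, and Mxi1 and Aldoc in NK cells. In macrophages the median log2 ratio of ibudilast to PBS was -0.18 for glycolysis and -0.18 for hypoxia members, against 0.05 over all 12757 genes. 1 of 18 glycolysis members (Slc2a1) and 3 of 16 hypoxia members were lower, where 6.44% of all genes were, and none was higher, as 15.4% of all genes were. Slc2a1 was at 55.9 and 42.1 CPM in PBS and ibudilast macrophages (ratio 0.753, interval 0.699 to 0.810) and Bnip3 at 46.0 and 34.6 CPM (ratio 0.753). Adm was at 1.96 and 1.17 CPM (114 and 26 UMIs) and Hilpda at 29.5 and 23.6 CPM. Vegfa was at 29.7 and 31.0 CPM (ratio 1.04, interval 0.955 to 1.14).

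With the macrophages over the Arg1 Mmp12 threshold left out, the medians were -0.14 and -0.05. Then no glycolysis member was lower, and Adm alone of the hypoxia members was (ratio 0.692, interval 0.320 to 1.37). These counts were not computed over all genes. The smaller share of macrophages over that threshold in the ibudilast library stood beside the macrophage differences. Within the MHC class II gate the medians were -0.11 and -0.07.

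Inside the Arg1 Mmp12 gate the outcome turned on which cells were counted. Among cells over no other state's threshold (163 and 42), 12 of 16 hypoxia members and 4 of 17 glycolysis members were lower, where 21.3% of all genes were, and the medians were -0.71 and -0.26. Among all 264 and 89 cells over the threshold the medians were 0.13 and 0.02, with 3 hypoxia members higher and 2 lower, where 24.9% and 16.4% of all genes were. Hilpda went from 156 to 49.5 CPM in the first and from 146 to 162 CPM in the second. Adm went from 16.1 to 1.90 CPM and from 16.3 to 15.4 CPM. The direction for hypoxia targets in these cells was therefore not stable.

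Some members kept their direction in both counts. Slc2a1 was at 182 and 97.0 CPM in the narrower set and 185 and 129 CPM in all cells over the threshold (ratio 0.696, interval 0.572 to 0.840), and Mxi1 at 62.4 and 24.7 CPM and at 62.7 and 43.0 CPM. Vegfa was not lower in either, at 150 and 158 CPM and at 137 and 189 CPM (ratio 1.38, interval 1.17 to 1.63).

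Monocytes had medians of -0.11 and -0.17. Of 18 glycolysis members 2 and of 14 hypoxia members 3 were lower, where 14.0% of all genes were. Vegfa was at 28.5 and 18.02 CPM (ratio 0.632, interval 0.477 to 0.837), Hilpda at 16.2 and 9.78 CPM and Ankrd37, an ankyrin repeat gene, at 20.4 and 29.2 CPM. In the subset of monocytes with MHC class II genes (158 and 244 cells), 8 of 18 glycolysis and 7 of 13 hypoxia members were lower, against 19.5% of all genes. There Vegfa was at 40.9 and 14.4 CPM (ratio 0.353, interval 0.214 to 0.570), Bnip3 at 41.6 and 22.4 CPM and Pfkl at 95.8 and 56.1 CPM. Ndrg1 went the other way, at 10.4 and 21.4 CPM. In MHC class II low monocytes the medians were -0.02 and -0.10. Whether the monocyte gates differ from each other was not tested.

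T cells had medians of -0.24 for glycolysis and -0.19 for hypoxia members, against 0.00 over all genes. Of 18 glycolysis members 4 and of 15 hypoxia members 5 were lower, where 12% of all genes were. The make-up of the gate differed too: CD8 cells were 186 of 429 PBS and 319 of 570 ibudilast T cells. Within CD8 T cells the medians were -0.13 and -0.24, with 3 of 18 and 5 of 14 lower, where 12% of all genes were. In CD4 T cells 11 of 18 glycolysis members were lower and 1 higher (22.1% and 21.3% of all genes), and in Treg 9 of 17 were lower and 2 higher (19.5% and 23.0%). Over all T cells, Tpi1 was at 516 and 364 CPM (ratio 0.705, interval 0.663 to 0.7501) and Eno1 at 197 and 136 CPM. In the same gate Pfkl was at 72.0 and 49.5 CPM and Slc2a1 at 37.9 and 26.7 CPM. Slc2a3 was at 43.3 and 43.1 CPM. Among hypoxia members Bnip3 was at 29.2 and 17.7 CPM, Pdk1 at 19.7 and 12.4 CPM and Ero1l at 56.7 and 38.5 CPM, while Egln3 and Ndrg1 had intervals that reached 1.

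NK cells had the lowest glycolysis median of the main types, -0.47, against 0.02 over all genes. 10 of 17 measured glycolysis members and 3 of 12 hypoxia members were lower, where 20.6% of all genes were. Pgk1 was at 229 and 117 CPM (ratio 0.509, interval 0.420 to 0.617), Ldha at 518 and 324 CPM (ratio 0.625), Tpi1 at 238 and 156 CPM and Gapdh at 1256 and 907 CPM. Ero1l was at 52.8 and 18.7 CPM, with 25.4% of its 63 PBS UMIs in 1 cell. Bnip3l was at 85.5 and 115 CPM. The median depth of NK cells was 6889.5 and 4561 UMIs, and their summed dissociation-stress genes were at 16631 and 21352.5 CPM. The part of either in these differences was not tested.

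Dendritic cells had medians of -0.06 and -0.10. Of 18 glycolysis members 1 and of 14 hypoxia members 2 were lower, where 11.2% of all genes were, and 3 hypoxia members were higher, where 16.7% of all genes were. Ldha was at 458 and 459 CPM and Pfkfb3 at 109 and 114 CPM. Hilpda, with 36 and 17 UMIs, was at 9.09 and 3.87 CPM.

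Microglia (Tmem119, P2ry12), 176 and 80 cells, ran opposite to the 5 main types, with 10 of 17 glycolysis members higher in the ibudilast library, where 22.5% of all genes were, and a median of 0.36. Aldoa was at 643 and 941 CPM, Tpi1 at 367 and 567 CPM and Pkm at 725 and 1012 CPM. Aldoc was at 17.1 and 84.1 CPM, but 77.8% of its ibudilast UMIs came from 1 cell, as did 57.9% of those of Pfkp and 65.2% of those of Vegfa. For Aldoa, Tpi1 and Pkm the highest cell held 10.3%, 19.2% and 12.5%. Median depth was 12192.5 UMIs in PBS and 3507.5 UMIs in ibudilast microglia, and summed non-immune markers were at 56.5 and 184 CPM. Their part in the difference, and whether microglia differ from the other types, was not tested.

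**Figure D5:**
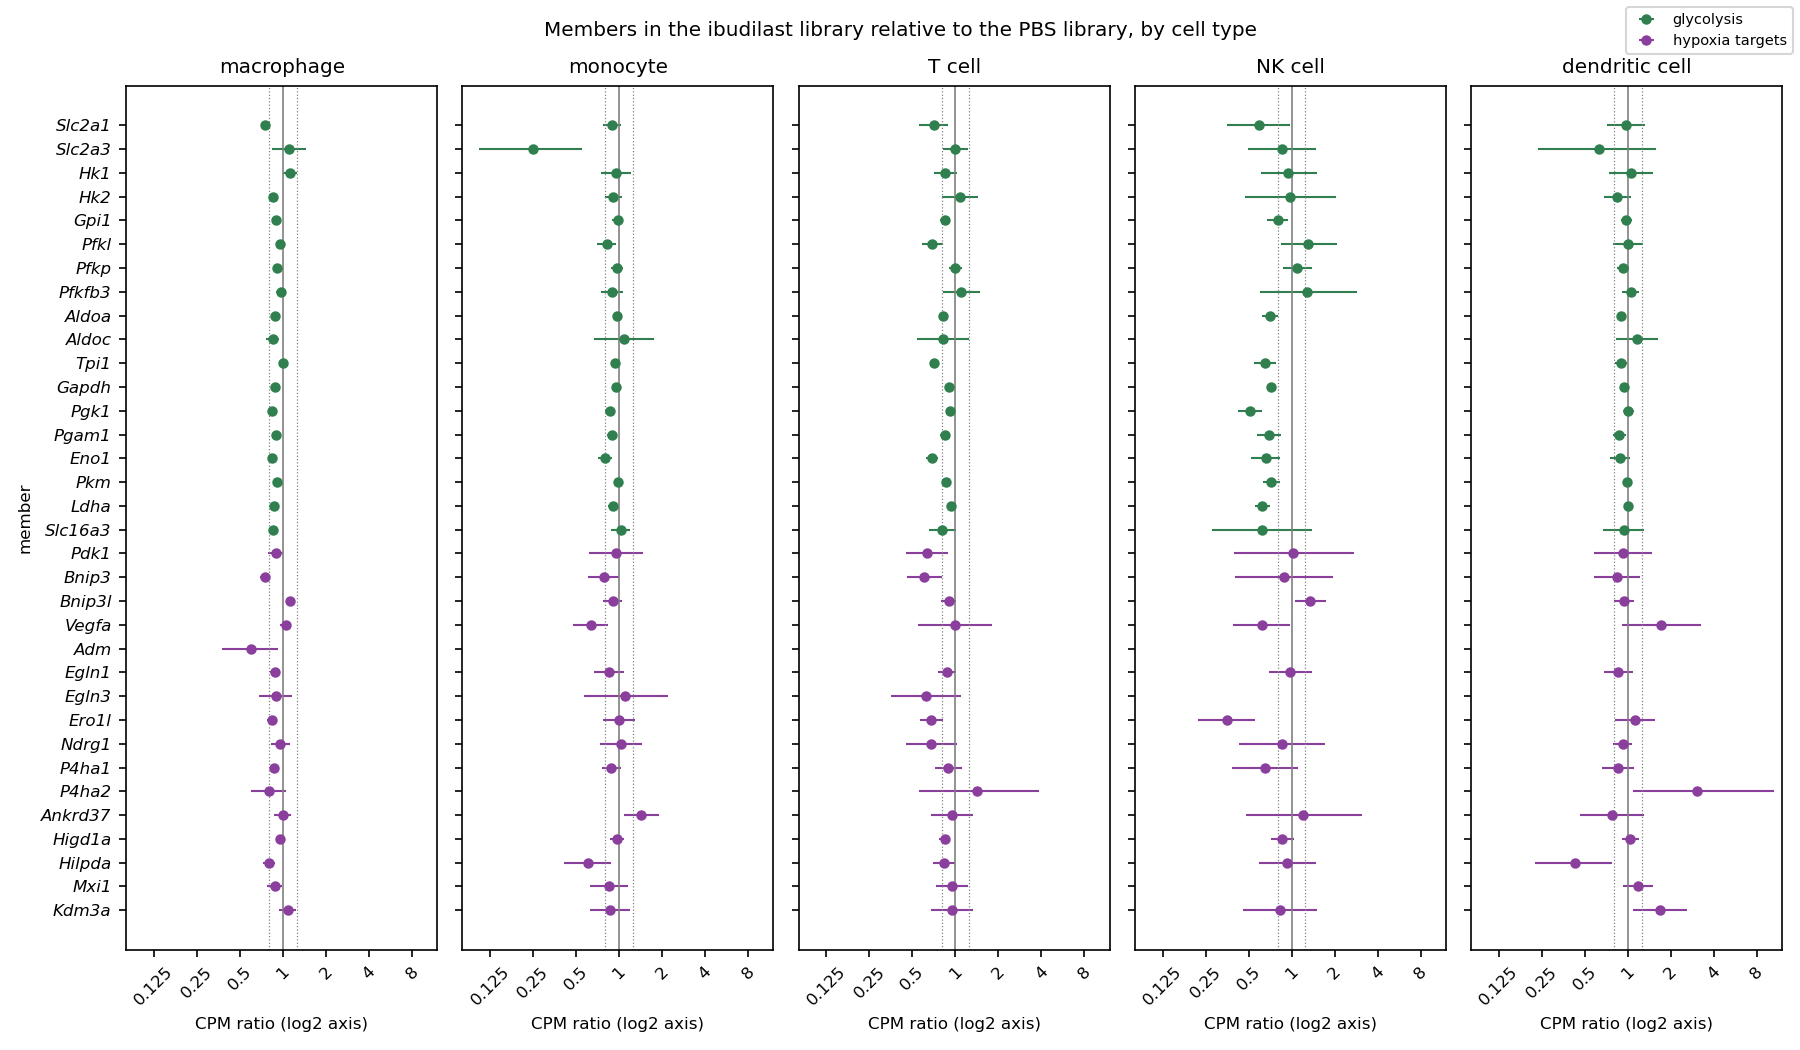
Ratio of CPM in the ibudilast library to CPM in the PBS library (log2 axis, dotted lines at 0.8 and its inverse) for each member with at least 20 UMIs in 5 cell types, green for glycolysis and purple for hypoxia targets, with 95% intervals for counting error. Most points lie between the dotted lines in macrophages and dendritic cells, and the NK cell panel holds 10 glycolysis members under 0.8, with Pgk1 at 0.509.

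Other genes of the hypoxia pathway lay on both sides between the libraries. Of 16 measured in macrophages 2 were higher, where 15.4% of all genes were, and 4 lower, where 6.44% were. There Cxcr4, a chemokine receptor, was at 59.6 and 99.9 CPM (ratio 1.68, interval 1.59 to 1.77), while Pgf, a relative of Vegfa, was at 4.83 and 2.24 CPM and Ak4, a mitochondrial adenylate kinase, at 2.51 and 1.44 CPM. In monocytes Hif1a, the oxygen-regulated HIF subunit, was at 258 and 189 CPM (ratio 0.734, interval 0.672 to 0.802), while Hmox1, a haem-degrading enzyme, was at 176 and 222 CPM. In NK cells Mif, a cytokine, was at 480 and 327 CPM.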

How the data were processed

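The authors deposited UMI counts, not normalised, for each barcode, which per the file headers came from Cell Ranger 6.1.1. The build was mm10 per the submitters' processing notes. Barcodes needed 300 genes, 500 UMIs and a mitochondrial share under 10%, and 8.01% and 14.2% of barcodes in the PBS and ibudilast libraries failed the mitochondrial limit. Scrublet in scanpy 1.11.5 marked 0 and 0 cells by its automatic threshold, so the 6% with the highest scores were left out (489 and 425 cells).

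Gates were set on fixed marker lists, in UMIs per 10000 UMIs of the cell. Cells over the thresholds of more than 1 lineage (201 and 392) and T or NK cells with macrophage RNA (627 and 673) were left out of the main gates, and 967 and 961 cells were in no gate. Counts were summed per gate and library and divided by the gate's UMIs. Levels have exact Poisson and ratios exact conditional binomial intervals at 95%. Amplified molecules without replicate libraries give counting error only. Medians cover members with at least 20 UMIs over both sums, after 0.5 UMIs were added to each, and members under 0.8-fold (lower) or above its inverse (higher) were counted without regard to their intervals. The same was computed over all genes unless stated otherwise. No p-value was computed. The code was tested on simulated data.

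The members, markers and lists were chosen with earlier results of these data known. All 34 members could be named, and other pathway genes with at least 100 UMIs in a gate and a ratio beyond 0.8-fold or its inverse, at most 4 per list and gate by the interval bound nearest to 1. The values of 1 other pathway gene are not reported here. Alternatives covered the cell filter, doublets, marker thresholds, thinning to 2000 UMIs, weighting of cells, scaling, cycling cells, Leiden clusters (resolution 1) in place of gates, low counts and shared barcodes. Keeping cells over another state's threshold, leaving out macrophages over the Arg1 Mmp12 threshold, and all alternatives of the comparison of libraries within the Arg1 Mmp12 gate were added after seeing the data.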

Additional observations from a re-analysis of the deposited data

Results flagged for a closer look

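The glycolysis members went opposite ways between the libraries in different cell types. Their median log2 ratio of ibudilast to PBS was 0.36 in microglia, with 10 of 17 members above the inverse of 0.8-fold (22.5% of all genes) and 0 under 0.8-fold (26.9%). It was -0.47 in NK cells (2 of 17 above and 10 under), -0.38 in CD4 T cells (1 of 18 above and 11 under) and -0.35 in Treg (2 of 17 above and 9 under). Of all genes, 24.8%, 21.3% and 23.0% were above and 20.6%, 22.1% and 19.5% under in these 3 cell types. These differences between cell types were not tested, since each library stands alone. Microglia had a median depth of 12192.5 and 3507.5 UMIs, and CD4 T cells numbered 87 and 60. In Treg Tpi1 was at 676 and 408 CPM and Eno1 at 238 and 138 CPM. In CD4 T cells Tpi1 was at 765 and 523 CPM, while Slc2a3 was at 11.5 and 45 CPM, on 9 and 24 UMIs.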

How the results depend on the processing

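Of 200 recomputed values, 184 stayed within the counting interval of the reported value. The sign differed for 10. It turned for a median beyond 0.8-fold or its inverse in 2 of these, both for hypoxia members between the libraries in Arg1 Mmp12 macrophages, from -0.71 to 0.37 with Leiden clusters and to 0.13 with cells over another state's threshold kept. The glycolysis median there moved from -0.26 to 0.17 and 0.018 with those settings and to -0.0081 with marker thresholds doubled. Within libraries, Arg1 Mmp12 over MHC class II macrophages kept its direction under every alternative run. The PBS glycolysis median was 1.34 after thinning, 1.30 with each cell weighted alike and 1.44 with Leiden clusters, and the hypoxia median 2.40 with doubled thresholds and 2.62 with Leiden clusters. The ibudilast values were 1.55 and 1.82 for glycolysis and 1.96 and 2.87 for hypoxia with those 2 settings, and 1.96 for hypoxia with cells over another state's threshold kept. After thinning, the dendritic cell hypoxia median was 0.37, and its sign differed under 4 alternatives, while those of the monocyte and T cell hypoxia medians each differed under 1. The causes were not tested. Low UMI counts limited Adm, Egln3 and P4ha2 outside the Arg1 Mmp12 cells and in the 42 ibudilast cells of that gate. NK cells (138 and 287) and microglia (176 and 80) were few. No paired analysis was possible because each group is 1 library.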
